A study of Mus musculus with 9 samples.

Results

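The genes described here are 10 enzymes that add or remove methyl groups on lysine 36 of histone H3 (H3K36). They were taken by symbol from the count table of colon intestinal epithelial cells (IECs), where all 10 were found among 46095 rows. Of the 10, 5 are methyltransferases, called writers here (Setd2, Nsd1, Ash1l, Setd3 and Setmar), and 5 are demethylases, called erasers (Kdm2a, Kdm2b, Kdm4a, Kdm4b and Kdm4c). All 10 passed the filter on low counts that left 14593 genes for testing. The comparison asks whether the RNA of the other writers and erasers changes when Setd2 is deleted.

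RNA-seq was made from 4 Smad4 Vil-KO mice and 5 Smad4 Vil-KO;Setd2 Vil-KO mice, the latter called double knockout below. Both genotypes carried the Smad4 deletion and were on a C57BL/6j background, and the double knockout mice carried the Setd2 deletion in addition. Floxed alleles were recombined by Villin-Cre, which acts in the gut epithelium and leaves the genes intact in stromal and immune cells. Per the study's methods, control mice came from the litters of the knockouts. All mice received the carcinogen azoxymethane (AOM, 10 mg/kg) at 8 weeks of age and 2% dextran sodium sulphate (DSS), which injures the colon lining, for 5 days, and IECs released with EDTA were collected at 10 days of treatment.

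H3K36 carries 1, 2 or 3 methyl groups. The trimethyl form lies over the bodies of transcribed genes, where Setd2 deposits it while travelling with elongating RNA polymerase II, and the mono- and dimethyl forms are made largely by the Nsd enzymes and Ash1l and are found also between genes. Proteins with PWWP, chromo or Tudor domains read the mark and bring DNA methylation, mismatch repair and histone deacetylation to it. Demethylases of the Kdm2 family act on the lower methylation states, and those of the Kdm4 family act on the higher states of H3K36 and of H3K9.

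Setd2, the enzyme of H3K36 trimethylation, was the gene targeted. It lies on the plus strand at chr9:110532597-110618633 (mm10), and its longest coding transcript has 21 exons. The study's own RT-qPCR primers for Setd2 mark a place in the coding sequence where the transcript can be followed, and the stretch between them is shown for that reason. It is 102 bases long, starts in exon 7 and ends in exon 8, and spans chr9:110562982-110564639 with the intron between. The capitals mark the forward primer and the complement of the reverse primer.
Setd2 amplicon: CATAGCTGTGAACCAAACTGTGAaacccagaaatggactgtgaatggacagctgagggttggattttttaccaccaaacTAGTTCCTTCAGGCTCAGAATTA
Which exons the floxed allele removes is not given in the sources used here. The deposited counts sum over the whole gene, so reads from exons left in place and reads from cells without Cre cannot be told apart from intact transcript.

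Setd2 RNA was lower in every double knockout library than in every Smad4 Vil-KO library. In CPM (counts scaled by TMM to a common library size), the Smad4 Vil-KO libraries held 118.0, 120.1, 99.2 and 114.4, and the double knockout libraries held 57.8, 87.1, 55.7, 53.9 and 76.1. The groups did not overlap, and double knockout replicates 2 and 5 lay closest to the Smad4 Vil-KO range. The mean fell from 112.9 ± 9.45 (SD, n = 4) to 66.1 ± 14.7 (SD, n = 5), which is 58.6% of the Smad4 Vil-KO mean. The log2 fold change was -0.77 (SE 0.145; 95% interval -1.09 to -0.45; adjusted p = 0.00756 in the quasi-likelihood test of edgeR, adjusted over all tested genes). Relative to the Smad4 Vil-KO mean, the double knockout libraries kept 51.2%, 77.1%, 49.3%, 47.7% and 67.4% of the Setd2 RNA. The spread among the double knockout mice, a coefficient of variation of 22.3%, was wider than the 8.37% among the Smad4 Vil-KO mice.

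The RNA of Smad4, the shared mediator of TGF-β and BMP signalling that is deleted in both genotypes, also varied between mice. Smad4 stood at 92.7, 54.3, 54.4 and 55.4 CPM in the Smad4 Vil-KO libraries and at 60.1, 113.8, 38.2, 40.5 and 98.7 CPM in the double knockout libraries. The 3 double knockout libraries highest in Smad4 (replicates 2, 5 and 1) were also the 3 highest in Setd2, in that order. Smad4 did not pass the test between genotypes (log2 fold change 0.13, 95% interval -0.59 to 0.85, adjusted p = 0.819).

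**Figure D1:**
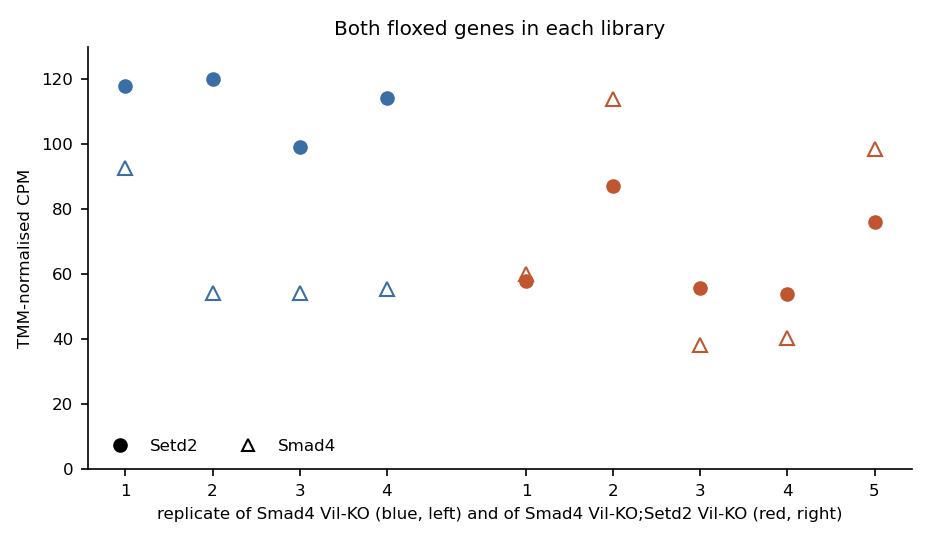
Setd2 (filled circles) and Smad4 (open triangles) in TMM-normalised CPM in each library, 4 of Smad4 Vil-KO (blue) and 5 of Smad4 Vil-KO;Setd2 Vil-KO (red). Setd2 ranged from 99.2 to 120.1 CPM in the first genotype and from 53.9 to 87.1 CPM in the second, and the double knockout replicates 2 and 5, highest in Setd2, were also the highest of that genotype in Smad4.

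Library totals were 12487129 to 17120202 counts in Smad4 Vil-KO and 12729533 to 14637157 in the double knockout, so that 1 count was worth 0.0594 to 0.0794 CPM. Genes of the Y chromosome (Kdm5d, Uty, Ddx3y and Eif2s3y, summed) held 4907, 4745, 28, 0 and 3857 counts in double knockout replicates 1 to 5, and 0 or 1 in the Smad4 Vil-KO libraries. All 3 libraries rich in these counts were double knockout, and within that genotype they were the 3 highest in Setd2. Sex is not in the labels, so genotype and Y-linked counts are partly confounded in all comparisons here. When the 3 were left out, the Setd2 log2 fold change was -1.04 (adjusted p = 0.000246). A fit of all 9 libraries with a yes-or-no term for richness in Y-linked counts gave -1.04 (adjusted p = 0.0037). As that term marks double knockout libraries only, its genotype difference rests on the same libraries as leaving the 3 out and is no separate result. Below, this term is called Y-linked counts in the model. Double knockout replicates 1 and 2 also stood apart in makeup. Mitochondrial genes took 5.62% and 6.29% of their counts against 8.12% to 10.3% in the 7 other libraries, and their 10 most abundant genes took 8.55% and 9.70% against 12.2% to 13.3%. Without these 2 libraries, a choice made after the data were seen, the Setd2 log2 fold change was -0.86 (adjusted p = 0.00304), and none of the 9 other enzymes passed. The 10 epithelial markers summed to 16671 to 19105 CPM in Smad4 Vil-KO and 14096 to 19467 CPM in the double knockout. Leukocyte markers (9 listed) summed to 56.7 to 152.3 and 50.6 to 105.9 CPM, fibroblast markers (6 listed) to 19.6 to 36.1 and 26.3 to 75.0 CPM, smooth muscle markers (4 listed) to 1.41 to 3.32 and 0.708 to 2.99 CPM, and endothelial markers (3 listed) to 1.35 to 2.73 and 1.71 to 3.46 CPM. Of these markers 10 epithelial, 9 leukocyte, 5 fibroblast, 1 endothelial and 0 smooth muscle ones had enough counts to be tested, and none of the tested ones passed between genotypes. For fibroblast and endothelial markers, each double knockout library except replicate 5 lay above the Smad4 Vil-KO range. For leukocyte and smooth muscle markers none did. None of the listed markers was at 3 counts or fewer in every library, and the part of other cell types in the results was not tested. In bulk RNA, fewer cells of a type and less RNA per cell cannot be told apart.

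Of the 10 enzymes, only Setd2 passed the test. Over all 14593 genes, 1941 passed (13.3%), with 986 higher (6.76%) and 955 lower (6.54%) in the double knockout. None of the 9 other enzymes passed in edgeR's quasi-likelihood test, and 0 of the 9 had an unadjusted p under 0.05, where 4466 of all tested genes had one. By DESeq2 and by limma-voom, again none of the 9 passed at an adjusted p under 0.05. Their log2 fold changes had a median of 0.04 and a median size of 0.08, against a median of -0.0006 and a median size of 0.23 over all tested genes. All 9 were under 0.2 in size, as were 44.7% of all tested genes, and 5 of the 9 were positive. In the fit reported here, and leaving aside Setmar, whose counts are low, the 95% intervals of the fold for the other 8 of these 9 lay between 0.746 (Kdm4b) and 1.25 (Kdm4a). Other fits moved the estimates, Kdm4b the farthest down, to a log2 fold change of -0.34 with Y-linked counts in the model.

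**Figure D2:**
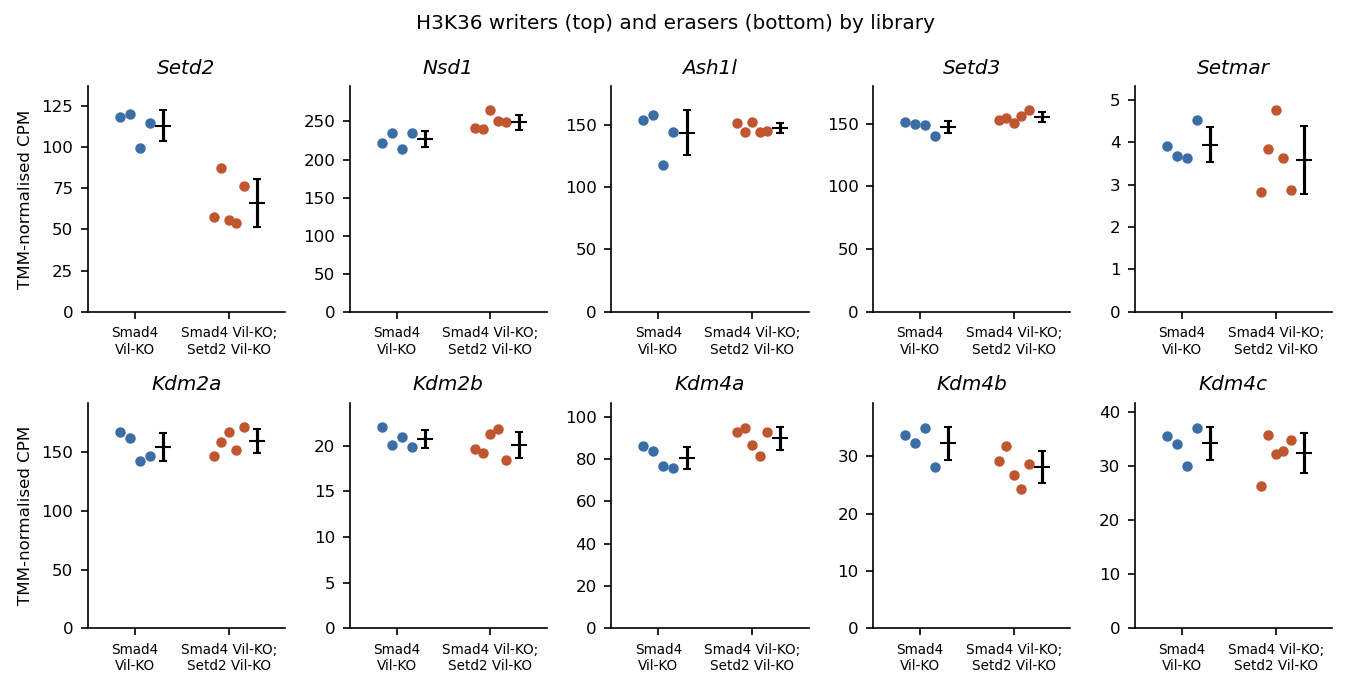
TMM-normalised CPM of the 10 enzymes in each library, writers in the top row and erasers in the bottom row. Points are single mice (4 Smad4 Vil-KO in blue, 5 Smad4 Vil-KO;Setd2 Vil-KO in red), bars are the mean ± SD, each panel has its own scale from 0, and the genotypes are apart for Setd2 (99.2 to 120.1 against 53.9 to 87.1) and, by a small gap, for Nsd1 (214.1 to 235.5 against 239.7 to 264.8).

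Among the writers, Nsd1 came nearest to a difference. Nsd1 (chr13:55209782-55318325, plus strand) makes mono- and dimethylated H3K36, which Setd2 can extend. It stood at 221.5, 235.2, 214.1 and 235.5 CPM in Smad4 Vil-KO and at 241.9, 239.7, 264.8, 251.0 and 248.8 CPM in the double knockout. Every double knockout library was above every Smad4 Vil-KO library, by a gap that ran from 235.5 to 239.7 CPM. Of all tested genes, 2512 (17.2%) had groups that did not overlap, and of the 10 enzymes Setd2 and Nsd1 did. The mean was 226.6 ± 10.6 (SD, n = 4) in Smad4 Vil-KO and 249.2 ± 9.89 (SD, n = 5) in the double knockout. The log2 fold change of 0.14 (SE 0.0686, 95% interval -0.01 to 0.29) did not pass edgeR's test (adjusted p = 0.2). The interval of the fold ran from 0.991 to 1.22. The groups stayed apart with the libraries scaled by total count alone (211.4 to 237.5 against 240.0 to 263.0) and with DESeq2's size factors (211.1 to 231.2 against 236.4 to 261.0). The difference passed in none of the other 20 fits run.

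Ash1l (chr3:88950622-89079375, plus strand), a trithorax group protein that dimethylates H3K36, held 154.1, 158.0, 117.7 and 144.1 CPM in Smad4 Vil-KO. In the double knockout it held 151.5, 144.4, 151.9, 144.4 and 144.6 CPM. The double knockout values lay inside the Smad4 Vil-KO range, which Smad4 Vil-KO replicate 3 widened at its lower end. On the log2 scale the difference was 0.04 (95% interval -0.16 to 0.23, adjusted p = 0.8), and without Smad4 Vil-KO replicate 3 it was -0.04 (adjusted p = 0.754). Of the 50-base words of the longest Ash1l coding transcript, 2.35% also occur in Dap3, which overlaps its start on the other strand.

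Setd3 and Setmar are SET-domain proteins listed here as H3K36 methyltransferases, and Setd3 is best known for methylating a histidine of actin. Setd3 (chr12:108106431-108179314, minus strand) stood at 150.9, 149.6, 148.8 and 140.4 CPM in Smad4 Vil-KO and at 152.4, 154.7, 150.7, 156.4 and 160.6 CPM in the double knockout. The ranges met only at 150.7 to 150.9 CPM. It had a log2 fold change of 0.07 (95% interval -0.06 to 0.21, adjusted p = 0.452), and its standard error of 0.0612 was the smallest among the 14593 tested genes. A share of 37.6% of the 50-base words of the Setd3 transcript also occurs in processed copies (Gm14026, Gm7114 and Gm8036), and reads from these stretches could be split between them. Gm14026 held 3 to 16 and 10 to 22 counts in the 2 genotypes against at least 1768 for Setd3. With the counts of the copies added, the log2 ratio of mean CPM for Setd3 was 0.0758 in place of 0.072.

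Setmar (chr6:108065045-108077122, plus strand), which in anthropoid primates is fused to a transposase and in the mouse is not, had the lowest counts of the 10. It held 61, 62, 59 and 57 counts in Smad4 Vil-KO and 44, 54, 68, 46 and 37 in the double knockout. In CPM these were 3.91, 3.68, 3.62 and 4.53 against 2.82, 3.84, 4.75, 3.62 and 2.87. The ranges overlapped, and the double knockout held both the highest and the lowest library. Its log2 fold change was -0.13, with the widest interval of the 10 (-0.60 to 0.33, adjusted p = 0.7). Without the 3 libraries rich in Y-linked counts it was 0.10 (adjusted p = 0.796).

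For the erasers of the Kdm2 family no difference beyond the spread of the mice was detected. Kdm2a (chr19:4314419-4398285, minus strand) and Kdm2b (chr5:122870665-122989823, minus strand) carry CXXC zinc fingers that bind unmethylated CpG islands, and Kdm2b brings a Polycomb complex, PRC1.1, to them. Kdm2a stood at 166.7, 162.3, 142.1 and 147.0 CPM in Smad4 Vil-KO and at 147.0, 158.9, 167.1, 151.6 and 171.6 CPM in the double knockout (log2 fold change 0.04, 95% interval -0.13 to 0.22, adjusted p = 0.747). Kdm2b stood at 22.1, 20.03, 20.9 and 19.8 CPM and at 19.7, 19.2, 21.3, 21.8 and 18.5 CPM (log2 fold change -0.05, 95% interval -0.25 to 0.16, adjusted p = 0.775). In both genes the double knockout range covered most of the Smad4 Vil-KO range. The sign for Kdm2b was not stable: without the 3 libraries rich in Y-linked counts the log2 fold change was 0.06. Of the 50-base words of the Kdm2b transcript, 23.8% occur in other annotated genes, among them Rnf34, which overlaps it on the other strand.

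The erasers of the Kdm4 family, JmjC enzymes that act on H3K9 and H3K36, leaned in different directions, and none passed the test. Kdm4a (chr4:118136957-118180043, minus strand) held 86.1, 83.6, 76.8 and 75.8 CPM in Smad4 Vil-KO and 93.0, 94.8, 86.8, 81.3 and 92.7 CPM in the double knockout. Only double knockout replicate 4 lay within the Smad4 Vil-KO range. The log2 fold change was 0.15 (95% interval -0.01 to 0.32, adjusted p = 0.195), the largest positive value of the 10, and without the 3 libraries rich in Y-linked counts it was 0.07 (adjusted p = 0.627).

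Kdm4b (chr17:56326062-56402870, plus strand) held 33.7, 32.2, 34.8 and 28.2 CPM in Smad4 Vil-KO and 29.2, 31.8, 26.8, 24.3 and 28.5 CPM in the double knockout. Smad4 Vil-KO replicate 4 lay inside the double knockout range, and the other 3 lay above it. The log2 fold change was -0.20 (95% interval -0.42 to 0.03, adjusted p = 0.221). It was -0.33 without the 3 libraries rich in Y-linked counts (adjusted p = 0.0735) and -0.27 with limma-voom and quality weights (adjusted p = 0.0718), the lowest adjusted p of any of the 9 enzymes in 180 fits. Kdm4c (chr4:74242497-74405860, plus strand) held 35.5, 34.1, 30.0 and 37.1 CPM and 26.3, 35.7, 32.2, 32.8 and 34.7 CPM, with overlapping ranges (log2 fold change -0.08, 95% interval -0.31 to 0.16, adjusted p = 0.653).

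**Figure D3:**
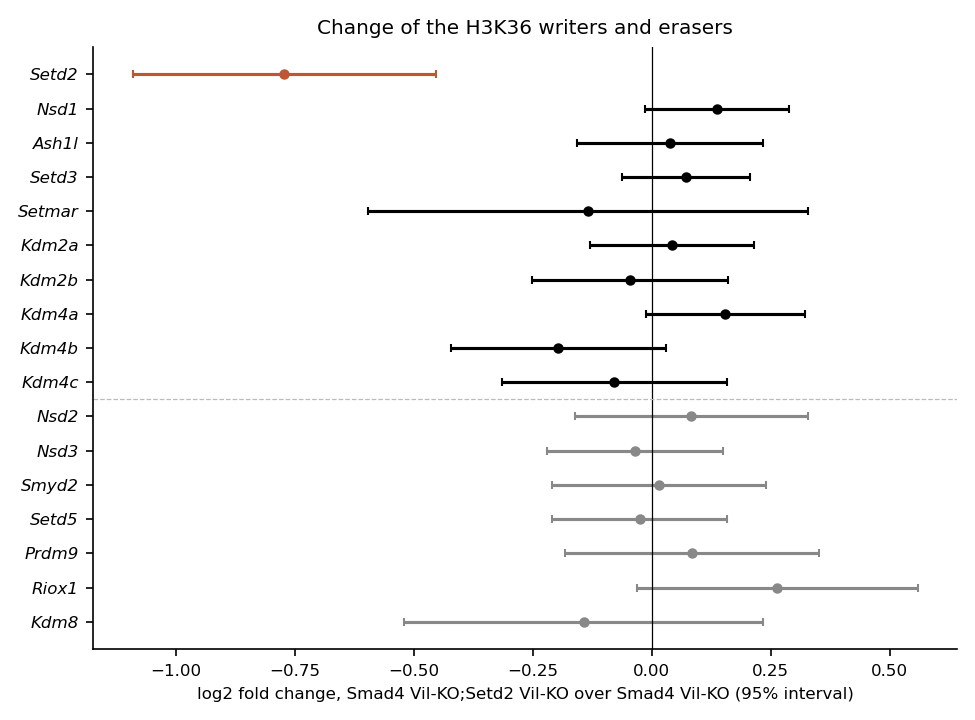
Log2 fold change (Smad4 Vil-KO;Setd2 Vil-KO over Smad4 Vil-KO, horizontal axis) with its 95% interval from edgeR's quasi-likelihood fit, for Setd2 (red), the 9 other enzymes (black) and 7 further H3K36 writers and erasers (grey, below the dashed line). Only the Setd2 interval, -1.09 to -0.45, lies clear of 0.

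Setd2 was also compared with each of the other enzymes within a library, as a ratio of counts that does not depend on how libraries are scaled. Against 8 of the 9 the ratio was lower in every double knockout library than in every Smad4 Vil-KO library. For Nsd1 the ratio of Setd2 counts to Nsd1 counts was 0.463 to 0.533 in Smad4 Vil-KO and 0.21 to 0.363 in the double knockout. For Ash1l it was 0.76 to 0.843 and 0.367 to 0.603, and for Kdm4a 1.29 to 1.51 and 0.622 to 0.919. The exception was Setmar, with 25.3 to 32.6 and 11.7 to 26.5. Mean log2 differences ran from -0.60 (Kdm4b) to -0.95 (Kdm4a). These values describe the same fall of Setd2 and are no further test of it.

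**Figure D4:**
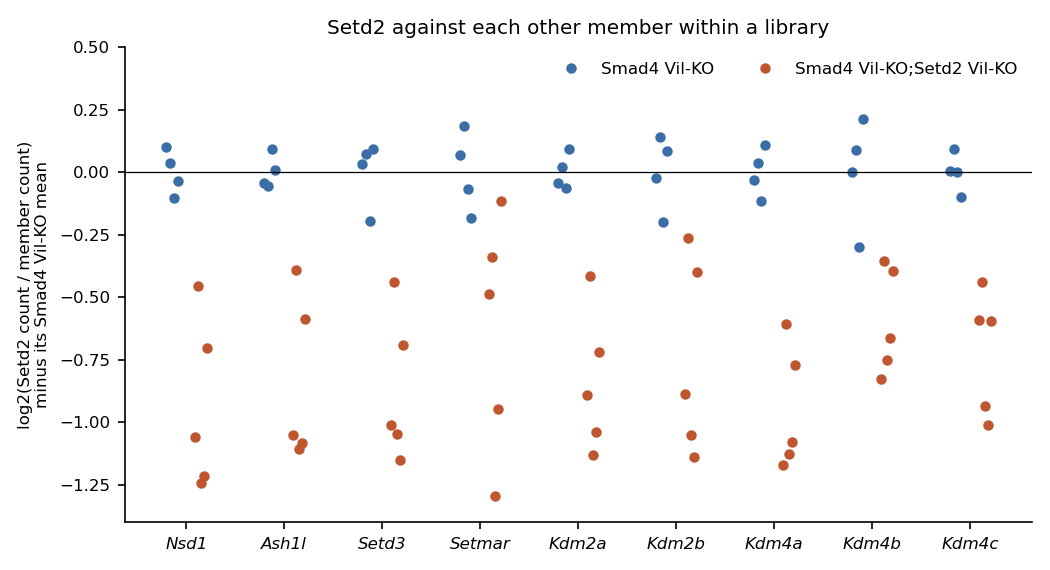
Log2 of the Setd2 count over the count of each other enzyme in the same library, minus the mean over the Smad4 Vil-KO libraries, so that 0 is that mean. Each point is a mouse (4 Smad4 Vil-KO in blue, 5 Smad4 Vil-KO;Setd2 Vil-KO in red), and the mean difference runs from -0.60 for Kdm4b to -0.95 for Kdm4a, with overlapping points only for Setmar.

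Levels between genes were compared in CPM per kilobase of merged exons. In Smad4 Vil-KO the order of mean levels was Setd3 (24.4), Kdm4a (13.9), Nsd1 (13.0), Kdm2a (10.7), Setd2 (10.5), Ash1l (9.67), Kdm4b (6.58), Kdm4c (5.87), Setmar (2.23) and Kdm2b (1.91). The libraries of Kdm4a and Nsd1 overlapped, as did those of Kdm2a, Setd2 and Ash1l in turn and those of Kdm4b and Kdm4c, so these neighbours are not ordered beyond their spread. The order depends on the length used: per kilobase of coding sequence Setd2 (14.8) stood below Ash1l (16.2). In the double knockout Setd2 stood at 6.15 ± 1.37 CPM per kilobase (SD, n = 5) against 10.5 ± 0.879 (SD, n = 4). It was below every library of Ash1l (9.73 to 10.2) and overlapped with Kdm4b (4.965 to 6.497). Per kilobase of merged exons the order of the other 9 was the same in both genotypes, which did not hold per kilobase of the longest transcript for Kdm2a, Nsd1 and Kdm4a: Setd3 25.7, Kdm4a 15.5, Nsd1 14.3, Kdm2a 11.0, Ash1l 9.93, Kdm4b 5.75, Kdm4c 5.56, Setmar 2.03 and Kdm2b 1.85 in the double knockout. There the libraries of Setmar and Kdm2b overlapped as well, and those of Kdm2a and Ash1l.

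Summed over genes, the 4 other writers held 521.4 ± 26.5 CPM (SD, n = 4) in Smad4 Vil-KO and 555.1 ± 11.1 CPM (SD, n = 5) in the double knockout. The libraries overlapped (484.2 to 546.4 and 542.7 to 572.2). Scaled by library size alone, they did not, with 483.2 to 537.1 and 537.2 to 596.4, and no test was made of the sum. With Setd2 added, the 5 writers held 634.3 ± 35.8 and 621.2 ± 12.4 CPM. The 5 erasers held 322.3 ± 19.1 and 329.5 ± 15.3 CPM.

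The genes whose profile over the 9 libraries was nearest to that of Setd2 were none of these enzymes. Likeness was the root mean square difference of log2 CPM after each gene was centred on its own mean. The 5 nearest were Ptprt (0.0826), Gm14305 (0.115), Lmntd2 (0.141), Camsap2 (0.145) and Slc9a3r2 (0.147). Among the 9 enzymes Kdm4b was nearest at 0.352, with 1333 of 14592 genes closer, and Nsd1 was farthest at 0.519, with 7536 closer. The genes tested on either side of Setd2 on chromosome 9 did not pass the test: Kif9 (chr9:110476738-110525174) had a log2 fold change of 0.42 (adjusted p = 0.265) and Nradd (chr9:110621135-110624393) of -0.59 (adjusted p = 0.2).

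Further writers and erasers of H3K36 did not pass the test either (0% called, beside 13.3% over all tested genes). Lists this short can hold no call at such a share. Of 5 other writers listed, all were tested and none passed, with log2 fold changes of 0.08 for Nsd2, -0.04 for Nsd3, 0.01 for Smyd2, -0.03 for Setd5 and 0.09 for Prdm9. Of 3 other erasers, Kdm4d was not tested, with at most 6 counts in a library. Riox1, a JmjC protein of the nucleolus, had 0.26 (adjusted p = 0.209) and Kdm8 had -0.14.

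Of 20 readers of H3K36 methylation, 3 fell and none rose, a share of 15% beside 13.3% over all tested genes. Their median log2 fold change was 0.09, since 13 of the 20 were positive. Hdgfl2, a PWWP protein, fell from 39.1, 40.0, 41.2 and 37.2 CPM to 26.4, 24.6, 28.2, 30.9 and 24.6 CPM without overlap (log2 fold change -0.55, adjusted p = 0.00454), and passed in all 20 other fits. The other 2 are Tudor-domain partners of the Polycomb complex PRC2, which methylates H3K27. Phf1 fell from a mean of 30.2 to 21.1 CPM (log2 fold change -0.52, adjusted p = 0.0124), and Phf19 from 3.805 to 2.189 CPM (log2 fold change -0.80, adjusted p = 0.0403). The call for Phf1 was lost without Smad4 Vil-KO replicate 3 (adjusted p = 0.0523) and once Y-linked counts were entered in the model (0.0604). The call for Phf19 was lost in 13 of 20 other fits. The adjusted p was 0.0569 to 0.12 without Smad4 Vil-KO replicate 1, 2 or 3 or double knockout replicate 1, 2, 4 or 5. It was 0.0816 without double knockout replicates 1 and 2 together. With Y-linked counts in the model it was 0.217, and without the libraries rich in these counts it was 0.152.

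Of 14 partners of transcription elongation, 1 rose and none fell (7.14%, median log2 fold change 0.07), beside 13.3% called and 6.76% higher over all tested genes. This was Iws1, which binds the elongation factor Spt6 and is linked to Setd2 recruitment. Iws1 stood at 80.3, 76.9, 73.6 and 73.9 CPM in Smad4 Vil-KO and at 96.3, 99.2, 84.2, 86.6 and 87.4 CPM in the double knockout. The groups did not overlap (log2 fold change 0.25, adjusted p = 0.0493), but the call was lost in 14 of 20 other fits. With Y-linked counts in the model the log2 fold change was 0.165 (adjusted p = 0.268). Without the libraries rich in these counts it was 0.169 (adjusted p = 0.154). Iws1 was highest in double knockout replicates 1 and 2, the libraries with few mitochondrial counts, and without both its log2 fold change was 0.18 (adjusted p = 0.0957). The call was also lost without each of the 4 Smad4 Vil-KO replicates and without each of double knockout replicates 1, 2 and 4, with an adjusted p of 0.0636 to 0.131. Neither of the 2 genes of histone H3.3, the variant laid down in transcribed genes, passed.

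The absence of calls among the 9 enzymes did not depend on a setting. Across 20 other fits of each (other tools, scalings and filters, replicate numbers as a block, the handling of Y-linked counts, each library left out, and double knockout replicates 1 and 2 left out together), 180 in all, none passed at an adjusted p under 0.05. Their log2 fold changes lay between -0.34 and 0.20. Setd2 passed in all 20, with log2 fold changes of -1.04 to -0.70.

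**Figure D5:**
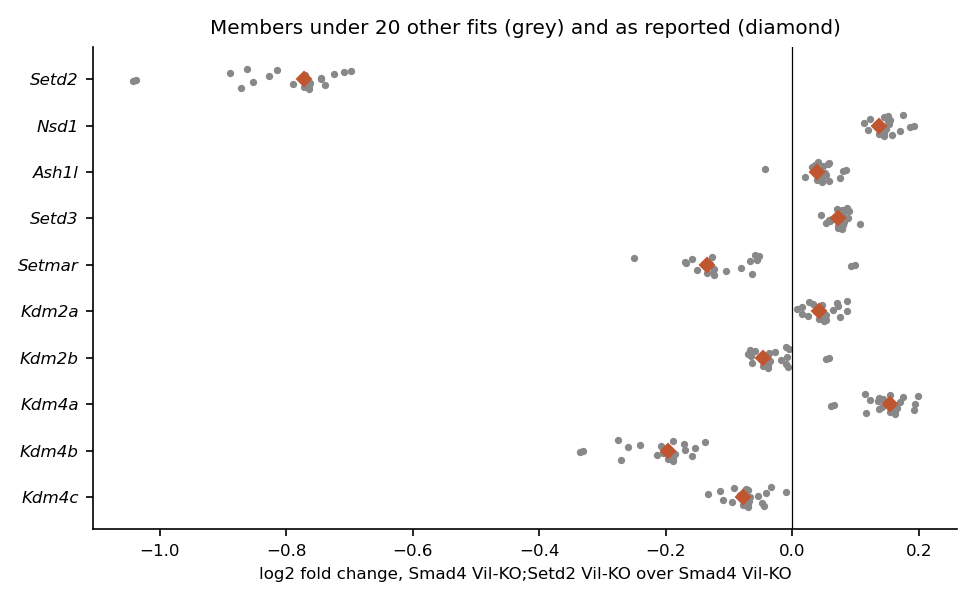
Log2 fold change (Smad4 Vil-KO;Setd2 Vil-KO over Smad4 Vil-KO, horizontal axis) of the 10 enzymes as reported (diamonds) and in 20 other fits (grey points, spread vertically for view). Setd2 lies between -1.04 and -0.70, and the 9 others lie between -0.34 and 0.20, with points on both sides of 0 for Ash1l, Setmar and Kdm2b.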

How the data were processed

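RNA-seq of colon IECs from 9 mice was used, with genotype and replicate taken from the labels. The authors deposited raw counts for each gene symbol and mouse, as whole numbers without normalization or pooling. The submitters' processing notes name HISAT2 2.0 and mm10, and the counting program and its strand setting are not given in the sources used here. Of 46095 symbols, 27 had been turned into dates and stayed in the totals unnamed.

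Genes kept by filterByExpr were scaled with TMM and tested with edgeR 4.0.16 (R 4.3.3) in a quasi-likelihood fit of all 9 libraries without covariates, Smad4 Vil-KO;Setd2 Vil-KO against Smad4 Vil-KO. P-values were adjusted by Benjamini-Hochberg for all genes tested, with a threshold of 0.05. They weigh the difference between genotypes against the variation between these mice. Standard errors were obtained from the log2 fold change and the F statistic (its size divided by the square root of F). DESeq2 1.42.0, limma-voom (limma 3.58.1), other scalings and filters, a replicate block, a term for Y-linked counts, each library left out, and 2 libraries with a low mitochondrial share left out together (added after the data were seen) were alternatives. The scripts were tested on simulated counts. Any pair of libraries of 1 genotype differed by a chi-square per gene of 10.01 or more, so each counted as a replicate.

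Positions, lengths and shared sequence came from GENCODE vM21 (GRCm38, which is mm10). Shared sequence is the percent of 50-base words of the longest coding transcript found in other genes. The primer sequences came from the study's primer list. Named genes were the 10 enzymes, Smad4, the listed genes with an adjusted p under 0.05, the 5 nearest to Setd2 in profile and its tested neighbours, and the other writers and erasers of H3K36. The enzymes and lists were chosen with earlier results of these data known.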

Additional observations from a re-analysis of the deposited data

Results flagged for a closer look

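Of 22 sets of libraries of 1 genotype examined for a library far from the others (the 10 enzymes and Smad4), 1 stood out. Chance alone gives about 1 in 20. Smad4 Vil-KO replicate 1 held 92.7 CPM of Smad4, where the other 3 libraries of that genotype held 54.3 to 55.4 CPM. The gap was 0.97 of the range of the 4 libraries. Setd2 in that library, 118.0 CPM, lay within the range of its genotype.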

How the results depend on the processing

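The number of the 10 enzymes that passed was 1 in every alternative run. Among tested genes, 1941 passed as reported, 2927 with limma-voom, 1285 with Y-linked counts in the model, 2930 without the 3 libraries rich in Y-linked counts, 3107 at an adjusted p under 0.1 and 4466 at an unadjusted p under 0.05. Leaving out 1 library gave 847 to 2696, and the count moved by over 1.5 times without Smad4 Vil-KO replicate 1 (1018), 2 (1204), 3 (847) or 4 (1183) or double knockout replicate 4 (1273). The causes were not tested.

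Same-numbered libraries did not deviate together (correlations of -0.0955, -0.104, 0.0196 and 0.0878), so the numbers were not taken as pairs. With the replicate block 1618 genes passed, and of the further listed genes 6 passed in place of 10. With Y-linked counts in the model 5 passed, without the Y-rich libraries 15 passed, and leaving out 1 library gave 4 to 10.

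Signs turned for uncalled genes only: Ash1l -0.0427 without Smad4 Vil-KO replicate 3 (range over left-out libraries -0.0427 to 0.0846), Setmar 0.0927 with the Y term and 0.0995 without the Y-rich libraries, and Kdm2b 0.0541 and 0.0583. Per kilobase of the longest transcript, Setd2 in Smad4 Vil-KO was 13.5 and per coding kilobase 14.8 in place of 10.5 CPM, and Nsd1 17.7 and 28.1 in place of 13.0 CPM, so levels between genes depend on the length used. By library size alone the 4 other writers summed to 109.0% of Smad4 Vil-KO in place of 106.5%, a scaling added after the data were seen, under which the genotypes no longer overlapped. Setmar, at 37 to 68 counts, is limited by depth.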

Other observations

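Other histone lysine enzymes were listed for comparison. Of 18 tested methyltransferases outside H3K36, 2 fell and none rose (11.1%, median log2 fold change -0.07), beside 13.3% called and 6.54% lower over all tested genes. Kmt5c, which makes trimethylated H4K20 in heterochromatin, held 82.6, 77.1, 93.6 and 84.6 CPM in Smad4 Vil-KO and 48.5, 53.2, 54.3, 51.6 and 62.4 CPM in the double knockout. The groups did not overlap (log2 fold change -0.65, adjusted p = 0.00188, quasi-likelihood test of edgeR), and the call held in all 20 other fits. Kmt2d, an enhancer H3K4 methyltransferase, fell from a mean of 174.1 to 135.8 CPM (log2 fold change -0.36, adjusted p = 0.0379). That call was lost in 11 of 20 other fits. The adjusted p was 0.0527 to 0.108 without Smad4 Vil-KO replicate 1, 2 or 3 or double knockout replicate 1, 2, 3 or 4. It was 0.0707 without double knockout replicates 1 and 2 together. With Y-linked counts in the model it was 0.0945, and without the libraries rich in these counts it was 0.0337. Of 13 other demethylases, 1 fell and none rose (7.69%, median log2 fold change 0.01), again beside 13.3% and 6.54%. This was the X-linked H3K4 demethylase Kdm5c, with a log2 fold change of -0.71 (adjusted p = 0.00318). Kdm5c held 272.2, 250.1, 246.0 and 245.4 CPM in Smad4 Vil-KO and 126.3, 133.7, 166.7, 169.3 and 180.6 CPM in the double knockout. Of the 3 libraries rich in Y-linked counts, double knockout replicates 1 and 2 were the lowest for Kdm5c and replicate 5 was the highest of its genotype. Replicates 1 and 2 also had the lowest mitochondrial share, and without both the log2 fold change was -0.55 (adjusted p = 0.0018). With Y-linked counts in the model the Kdm5c log2 fold change was -0.59 (adjusted p = 0.0281).

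Of the 8 subunits of PRC2, the complex that methylates H3K27 and is inhibited by methylated H3K36, 2 rose and 1 fell (37.5%, median log2 fold change 0.03), beside 13.3% over all tested genes. Rbbp7, an X-linked histone chaperone shared with other complexes, rose from a mean of 193.8 to 266.6 CPM (log2 fold change 0.46, adjusted p = 0.0102) and passed in all 20 other fits. Suz12 rose from 80.1 to 104.4 CPM (log2 fold change 0.38, adjusted p = 0.0338). The call for Suz12 was lost in 8 of 20 other fits. The adjusted p was 0.0584 to 0.106 without Smad4 Vil-KO replicate 1, 2 or 3 or double knockout replicate 1, 2 or 4. It was 0.0745 without double knockout replicates 1 and 2 together. With Y-linked counts in the model it was 0.122, and without the libraries rich in these counts it was 0.039. Ezh1, the less active of the catalytic subunits, fell from 64.1 to 47.9 CPM (log2 fold change -0.42, adjusted p = 0.0321). Its call was also lost in 7 of 20 other fits. The adjusted p was 0.0584 to 0.109 without Smad4 Vil-KO replicate 3 or 4 or double knockout replicate 1, 3 or 4. With Y-linked counts in the model it was 0.0776, and without the libraries rich in these counts it was 0.0342. None of the 7 tested partners of Kdm2b in PRC1.1 passed. Over all 89 tested genes of the lists outside the 10 enzymes, 3 rose and 7 fell, together 11.2%, beside 13.3% over all tested genes.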
